A study of Mus musculus with 7 samples.

Results

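A set of 10 genes of skeletal muscle regeneration was followed in aged mouse skin: Pax7, Myf5, Myod1, Myog, Myf6, Mymk, Myh3, Myh8, Chrna1 and Chrng. They were taken from a list by name, as 10 of the 55450 genes in the count table, and all 10 were found. The list holds a satellite cell gene, the 4 myogenic regulatory factors, a gene of myoblast fusion, the embryonic and perinatal myosin heavy chains and a pair of acetylcholine receptor subunits that respond to denervation. In skin treated with ABT-263, Myog, Mymk, Myh8 and Chrng fell relative to DMSO, and no tested gene of the list rose. Without ABT-263-treated mouse 478, 0 of the genes passed the test. In that fit 771 of all 18481 genes tested fell, beside 2108 of 17959 with all mice. Genes of adult muscle fibres fell too (7 of 20, beside 11.7% of all genes tested). Chrng, the fetal receptor subunit, went from a mean of 24.6 ± 27.5 CPM (counts per 1000000 counts; SD, n = 4) to 0.386 ± 0.0567 (SD, n = 3).

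The study asked how removal of senescent cells from aged skin affects a later wound, and the sequencing addressed the skin before wounding. Dorsal skin of 7 male C57BL/6 mice aged 24 months was used, after the hair had been taken off with clippers and Nair. ABT-263 (Navitoclax), which blocks Bcl-2 and Bcl-xL, proteins that hold back apoptosis, was put on the skin of 3 mice (476, 477 and 478) at 5 μM in DMSO. The other 4 mice (480 to 483) had DMSO alone. Both groups were treated for 5 days under a semi-occlusive Tegaderm dressing. RNA came from homogenates of the excised skin, so the cell types were not separated, and each library is taken as 1 mouse. The labels give no more than the sample numbers, so the p-values measure the spread between these samples.

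Mouse skin rests on a thin sheet of striated muscle, the panniculus carnosus, which is taken along when full-thickness skin is excised. Muscle stem cells, called satellite cells, lie along its fibres and express Pax7. When activated they express Myf5 and Myod1, then Myog, and fuse through Mymk into fibres that first make developmental myosins. An innervated adult fibre keeps acetylcholine receptors at the synapse, where the epsilon subunit (Chrne) has replaced the fetal gamma subunit (Chrng). A fibre that loses its nerve makes Chrna1, Chrng and Myog again along its length.

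Between 20344364 and 43562330 read pairs were counted per library and each of the 3 ABT-263 libraries was deeper than the deepest DMSO library. Of the 17959 genes tested, 12.4% rose and 11.7% fell in ABT-263 at an adjusted p below 0.05 (edgeR's quasi-likelihood test, Benjamini-Hochberg adjustment over all genes tested). The median log2 fold change of all genes tested was 0.00. Markers of keratinocytes, fibroblasts, macrophages, endothelium, Schwann cells, smooth muscle and adult muscle fibre were present, and no gene of these lists was at 0 in all mice. All levels below are CPM scaled by TMM factors, and fold changes are ABT-263 against DMSO on the log2 scale.

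Of the 10 genes 9 were tested, since Myf5 was below the filter on low counts. Of the 9, 0 rose, beside 12.4% of all genes tested, and 4 fell (Myog, Mymk, Myh8 and Chrng), beside 11.7%. In 3 of the 9 (Myog, Mymk and Chrng) every ABT-263-treated mouse was below every DMSO-treated mouse, beside 18.4% of all genes. In 0 of the 9 was every ABT-263-treated mouse above, beside 18.7%. The log2 fold change was negative in 8 of the 9 genes, with a median of -1.29. By DESeq2 and limma also 0 rose, as at an unadjusted p below 0.05 in all 3 tools. Without ABT-263-treated mouse 478, 0 of the genes passed the edgeR test (5 lower at an unadjusted p below 0.05), and 2 passed without mouse 476. Of all genes tested, 771 of 18481 fell without mouse 478 and 1112 of 18576 without mouse 476, beside 2108 of 17959 with all mice. The plot of fold changes sets these genes beside related ones.

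**Figure D1:**
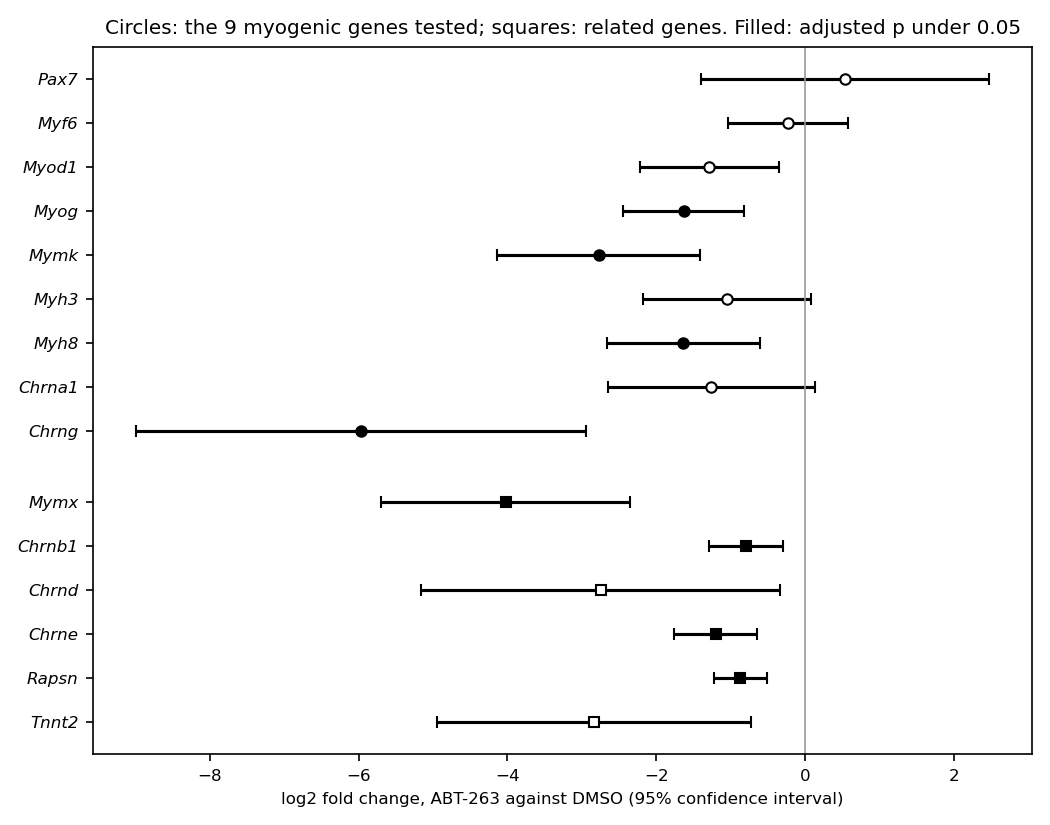
Log2 fold change of ABT-263 against DMSO (horizontal axis) with its 95% confidence interval (bars) for 9 of the 10 genes (circles) and 6 related genes (squares). Filled symbols mark genes with an adjusted p below 0.05; the interval of Chrng, from -8.99 to -2.94, is the widest, and those of Pax7, Myf6, Myh3 and Chrna1 include 0.

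Pax7 (ENSMUSG00000028736, chromosome 4, 139737062 to 139833528 on GRCm38) encodes the paired-box factor that marks satellite cells. It was near the limit of detection, with 14, 16, 3 and 0 counts in DMSO-treated mice 480 to 483 and 16, 20 and 22 in ABT-263-treated mice 476 to 478. The 0 in mouse 483 allows a level of up to 0.123 CPM (3 counts, counting error only). Mice 482 and 483 were lowest, and the ABT-263 group lay inside the DMSO range. Means were 0.350 ± 0.324 CPM (SD, n = 4) and 0.516 ± 0.0508 CPM (SD, n = 3), and the log2 fold change was 0.54 ± 0.85 (SE; 95% interval -1.40 to 2.48; edgeR adjusted p = 0.669). A difference in Pax7 was not detectable at this depth.

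Myf5 (ENSMUSG00000000435, chromosome 10, 107482908 to 107486134) encodes the factor that acts first in commitment to the muscle lineage. Its counts were 1, 9, 2 and 13 with DMSO and 4, 4 and 6 with ABT-263, or 0.0409 to 0.534 CPM and 0.101 to 0.143 CPM. The ABT-263 values lay inside the DMSO range, and Myf5 was too low to be tested.

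Myod1 (ENSMUSG00000009471, chromosome 7, 46376474 to 46379099) encodes the other determination factor, abundant in activated satellite cells and myoblasts. DMSO-treated mice 480 to 483 had 25.4, 49.5, 13.6 and 32.3 CPM, and ABT-263-treated mice 476 to 478 had 15.7, 9.98 and 11.5 CPM. Mouse 481 was highest, and DMSO-treated mouse 482 lay below ABT-263-treated mouse 476, so the groups overlapped. The mean was 30.2 ± 15.0 CPM against 12.4 ± 2.96 CPM, with a log2 fold change of -1.29 ± 0.41 (95% interval -2.22 to -0.35) that missed the threshold (edgeR adjusted p = 0.0531). Myod1 passed without DMSO-treated mouse 482 (edgeR adjusted p = 0.0338) and by the DESeq2 Wald test (adjusted p = 0.0104).

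Myog (ENSMUSG00000026459, chromosome 1, 134289989 to 134292548) encodes myogenin, which drives terminal differentiation and is also made by denervated fibres. It had 23.0, 45.3, 30.8 and 44.4 CPM in the DMSO-treated mice and 17.7, 8.04 and 9.07 CPM in the ABT-263-treated mice. All ABT-263-treated mice were below all DMSO-treated mice, with mouse 476 nearest to the DMSO range. Myog fell 3.10-fold, from 35.9 ± 10.8 to 11.6 ± 5.30 CPM, a log2 fold change of -1.63 ± 0.35 (SE; edgeR adjusted p = 0.0178). It passed in 6 of the 7 fits that each left out 1 mouse, and not without ABT-263-treated mouse 478 (edgeR adjusted p = 0.0659).

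Myf6 (ENSMUSG00000035923, chromosome 10, 107492853 to 107494737) encodes MRF4, the factor of this family that stays on in mature fibres. DMSO-treated mice had 37.9, 69.3, 56.5 and 64.1 CPM and ABT-263-treated mice 75.8, 27.3 and 42.6 CPM. The highest and the lowest value both came from ABT-263-treated mice, 476 and 477, so the groups overlapped throughout. The log2 fold change was -0.23 ± 0.35 (95% interval -1.04 to 0.57; edgeR adjusted p = 0.655). It turned to 0.09 without ABT-263-treated mouse 477.

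**Figure D2:**
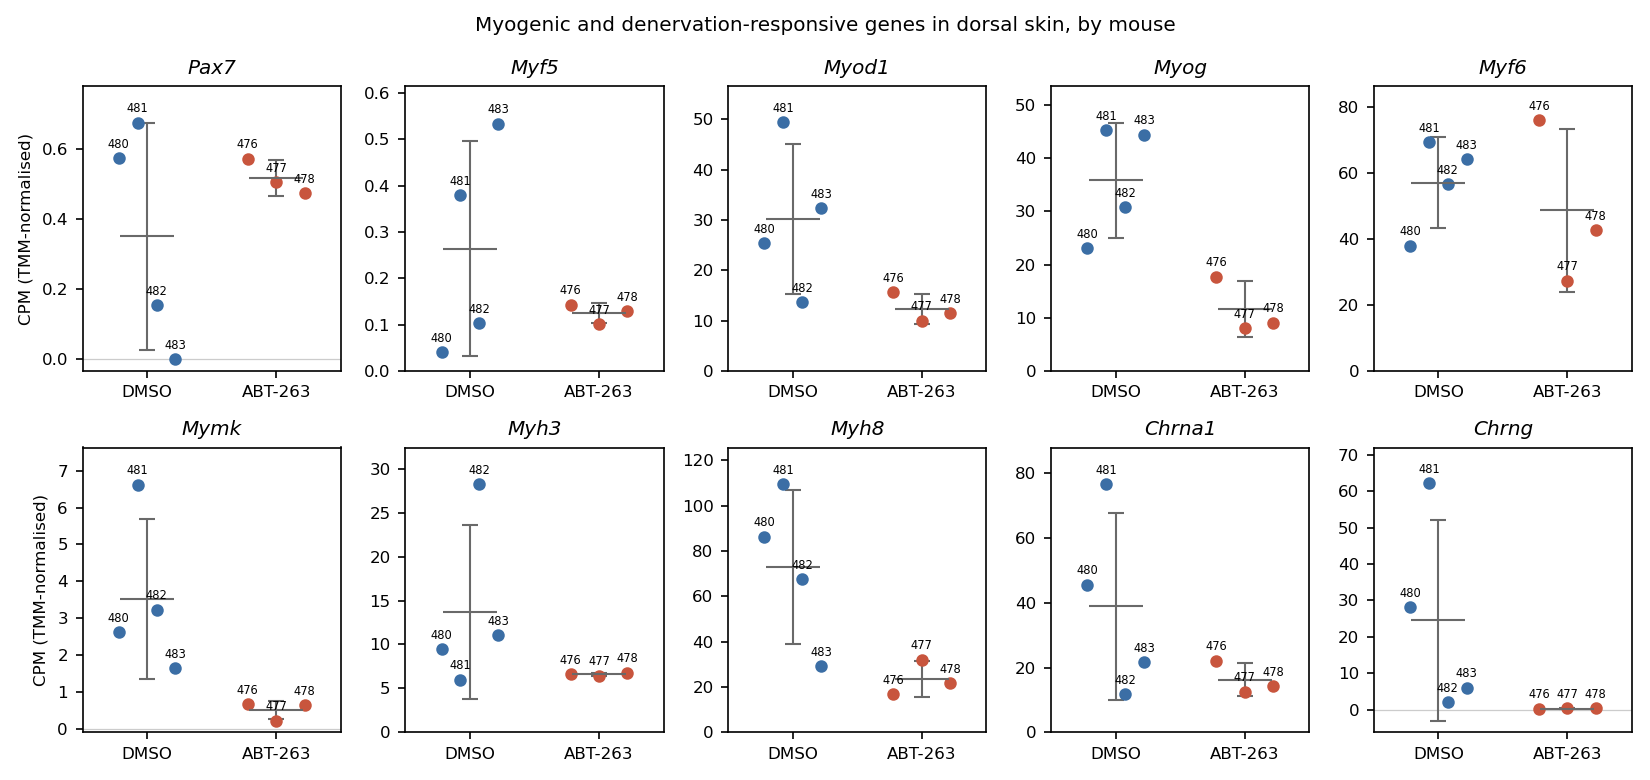
TMM-normalised CPM (vertical axis, linear, own scale for each gene) of the 10 genes in each of 4 DMSO-treated (blue) and 3 ABT-263-treated (red) mice, with mouse numbers above the points; bars are mean ± SD. In Myog, Mymk and Chrng all red points lie below all blue points, while in Myf6 the red points lie at both ends.

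Mymk (ENSMUSG00000009214, chromosome 2, 27061636 to 27072179) encodes myomaker, the membrane protein that myoblasts need for fusion. Counts were 64, 157, 63 and 40 with DMSO and 19, 9 and 30 with ABT-263, which is 2.62, 6.62, 3.23 and 1.64 CPM against 0.679, 0.227 and 0.644 CPM. Every ABT-263-treated mouse was below every DMSO-treated mouse, and mouse 481 was highest, as it was for Pax7, Myod1, Myog, Myh8, Chrna1 and Chrng. Mymk fell 6.82-fold, with a log2 fold change of -2.77 ± 0.60 (SE; edgeR adjusted p = 0.0169). It passed in 6 of the 7 fits that left out a mouse and missed the threshold without ABT-263-treated mouse 478 (edgeR adjusted p = 0.0522).

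Mymx, which encodes myomixer, the partner of myomaker in fusion, had 13, 47, 25 and 21 counts in the DMSO-treated mice and 1, 1 and 6 in the ABT-263-treated mice. Its levels did not overlap between groups. The log2 fold change was -4.02 ± 0.73 (SE; edgeR adjusted p = 0.0108), the most negative of the list of 24 genes of myogenic regulation and fusion.

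That list gives the surroundings of the regulatory factors and Mymk. Of its 24 genes 23 were tested (Igf2 was not). Of these 5 rose, beside 12.4% of all genes tested, and 2 fell, beside 11.7%, with a median log2 fold change of 0.18. The genes that fell were Mymx and Mef2c (log2 fold change -1.29, edgeR adjusted p = 0.0113), which encodes a partner of the myogenic factors in muscle transcription. Those that rose included Myof (1.40, edgeR adjusted p = 0.00584), a ferlin for membrane repair and fusion, Jam2 (1.23, edgeR adjusted p = 0.00732) and Kirrel (1.05, edgeR adjusted p = 0.0140), which encode adhesion proteins also made by other cells, and Twist1 (0.77, edgeR adjusted p = 0.0278), a mesenchymal factor that inhibits the myogenic ones. Mymk and Mymx, the genes of the fusion machinery itself, both fell. The number that rose was 3 without DMSO-treated mouse 481, 3 without 482 and 2 without ABT-263-treated mouse 478.

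Beside Pax7 and Myf5, a list of 22 satellite cell and progenitor genes was read, of which 21 were tested (Calcr was not). Of these 2 rose, beside 12.4% of all genes tested, and 4 fell, beside 11.7%, and most did not pass the test. The median log2 fold change was -0.51. Vcam1, an adhesion molecule of satellite cells and of endothelium, rose (2.66, edgeR adjusted p = 0.0131), as did Dag1, dystroglycan (0.59, edgeR adjusted p = 0.0351). Ncam1, a neural adhesion molecule also made by denervated fibres (-1.03, edgeR adjusted p = 0.0159), Chodl (-1.59, edgeR adjusted p = 0.0218), Tenm4 (-1.09, edgeR adjusted p = 0.0255) and Pax3, the paralog of Pax7 (-1.83, edgeR adjusted p = 0.0394), fell. Pax3 counts were low, at 28, 60, 40 and 34 with DMSO and 5, 19 and 37 with ABT-263, and the cells that made it were not separated. The summed level of the list was 747.5 to 881.7 CPM with DMSO and 646 to 899.6 CPM with ABT-263. The number that rose was 1 without any one of the DMSO-treated mice or without ABT-263-treated mouse 478. The number that fell was 1 without DMSO-treated mouse 482 or ABT-263-treated mouse 478, and 2 without DMSO-treated mouse 483 or ABT-263-treated mouse 477.

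Myh3 (ENSMUSG00000020908, chromosome 11, 67078300 to 67102291) encodes the embryonic myosin heavy chain, the first to appear in new fibres. DMSO-treated mice had 9.49, 5.98, 28.2 and 11.1 CPM and ABT-263-treated mice 6.61, 6.43 and 6.77 CPM. Mouse 482 was highest, and mouse 481, highest for 7 of the other genes, was the lowest of all 7 mice. The ABT-263 values were close together and inside the DMSO range. The log2 fold change was -1.05 ± 0.49 (95% interval -2.18 to 0.08; edgeR adjusted p = 0.150).

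Myh8 (ENSMUSG00000055775, chromosome 11, 67277124 to 67308634) encodes the perinatal myosin heavy chain, which follows Myh3 in development and regeneration. Its levels were 86.3, 109.6, 67.5 and 29.2 CPM with DMSO and 16.8, 32.1 and 21.6 CPM with ABT-263. Only DMSO-treated mouse 483 reached the ABT-263 range, below mouse 477. Myh8 fell from a mean of 73.1 ± 33.9 to 23.5 ± 7.83 CPM, a log2 fold change of -1.64 ± 0.44 (SE; edgeR adjusted p = 0.0349). The call was lost without any one of DMSO-treated mice 480, 481 and 482 or ABT-263-treated mice 476 and 478 (edgeR adjusted p from 0.0605 to 0.120). Of the 50-base stretches of Myh8 exons, 21.4% also occur in other genes, mostly Myh2, Myh1, Myh4 and Myh13, against 4.81% for Myh3, so its count is less certain although only unique alignments were counted.

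Other genes of developing and regenerating fibres were given by a list of 14, all tested. Of these 1 rose, beside 12.4% of all genes tested, and 3 fell, beside 11.7%, with a median log2 fold change of -0.84. Myl6b (-1.84, edgeR adjusted p = 0.00578), Myl4 (-1.68, edgeR adjusted p = 0.00578) and Tnni1 (-1.82, edgeR adjusted p = 0.00819) fell. They encode a myosin light chain of slow muscle, an embryonic and atrial light chain and slow troponin I. Vim, the intermediate filament vimentin of mesenchymal cells, rose (1.68, edgeR adjusted p = 0.00707). Tnnt2, cardiac troponin T, also made by immature skeletal fibres, is named after its values were seen. It had 89.1, 160.03, 14.3 and 18.5 CPM with DMSO and 9.69, 13.1 and 6.83 CPM with ABT-263, and missed the threshold (-2.84, edgeR adjusted p = 0.0573). In Tnnt2, as in Chrng, mice 480 and 481 were high and 482 and 483 low within the DMSO group.

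Chrna1 and Chrng encode the alpha and gamma subunits of the muscle acetylcholine receptor, whose genes are targets of the myogenic factors in denervated and developing muscle. The factors bind E-boxes, written CANNTG, of which CAGCTG is a form they prefer. The promoters of 4 subunit genes are shown because the fold change of Chrng was the most negative of the 9 tested genes and the subunits differed from each other, and the motif was looked for in the 250 bases before each RefSeq start (GRCm38.p6). Both motifs read the same on both strands, and every CAGCTG is also a CANNTG. The regions are chr1:87205561-87205810 (plus strand) for Chrng, chr2:73580339-73580588 (minus) for Chrna1, chr11:70619195-70619444 (minus) for Chrne and chr11:69795938-69796187 (minus) for Chrnb1. All lie just before the first exon of the RefSeq gene, and that of Chrng lies within the longer GENCODE gene. Each is printed 5′ to 3′ with CAGCTG in capitals.
Chrng: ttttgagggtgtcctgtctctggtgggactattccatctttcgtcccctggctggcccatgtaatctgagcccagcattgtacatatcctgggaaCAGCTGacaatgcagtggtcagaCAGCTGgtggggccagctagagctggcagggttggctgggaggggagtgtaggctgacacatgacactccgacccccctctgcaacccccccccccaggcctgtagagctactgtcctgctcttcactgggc
Chrna1: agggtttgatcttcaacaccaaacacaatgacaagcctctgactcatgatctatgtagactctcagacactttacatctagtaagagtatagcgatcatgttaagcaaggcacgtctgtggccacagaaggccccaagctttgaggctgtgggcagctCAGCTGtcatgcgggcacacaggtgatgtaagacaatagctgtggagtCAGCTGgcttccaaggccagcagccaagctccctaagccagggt
Chrne: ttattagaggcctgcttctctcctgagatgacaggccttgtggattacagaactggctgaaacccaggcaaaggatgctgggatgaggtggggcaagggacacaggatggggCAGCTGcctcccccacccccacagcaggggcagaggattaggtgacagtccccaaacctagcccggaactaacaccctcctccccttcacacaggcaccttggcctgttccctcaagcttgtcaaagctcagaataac
Chrnb1: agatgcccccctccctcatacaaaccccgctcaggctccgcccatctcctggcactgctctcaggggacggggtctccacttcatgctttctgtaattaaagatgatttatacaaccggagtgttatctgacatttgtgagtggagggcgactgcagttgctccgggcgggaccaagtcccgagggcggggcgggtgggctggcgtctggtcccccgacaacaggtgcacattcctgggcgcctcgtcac
The Chrng region held CAGCTG at -155 and -132 and the Chrna1 region at -92 and -44, counted from the RefSeq start to the first base of the motif. The Chrne region held 1, at -138, and the Chrnb1 region held none but had 3 other E-boxes, at -119, -96 and -29. Another E-box lay at -75 in the Chrng region and at -73 in the Chrna1 region. Of 32851 promoters of the same length in the RefSeq table, 13.0% held at least 1 CAGCTG, 1.26% held 2 or more and 66.2% held at least 1 CANNTG. Promoters were found for 7 of the 10 genes, and none was found for Chrnd, the gene of the delta subunit. In the Myog region CANNTG lay at -138 and -12, in Myh3 at -191 and in Myh8 at -32, with no CAGCTG, and the Pax7 and Myf5 regions held no CANNTG. These matches describe the letters of these windows only.

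Chrna1 (ENSMUSG00000027107, chromosome 2, 73563215 to 73580338) had 45.6, 76.7, 11.8 and 21.7 CPM in the DMSO-treated mice and 22.1, 12.6 and 14.3 CPM in the ABT-263-treated mice. Mice 480 and 481 were above all others, while 482 was the lowest of all 7 mice, so the groups overlapped. The log2 fold change was -1.26 ± 0.60 (95% interval -2.65 to 0.13; edgeR adjusted p = 0.158).

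Chrng (ENSMUSG00000026253, chromosome 1, 87204657 to 87212694) had 688, 1475, 41 and 147 counts with DMSO and 9, 17 and 19 with ABT-263. These are 28.2, 62.1, 2.10 and 6.04 CPM against 0.322, 0.428 and 0.408 CPM. The lowest DMSO-treated mouse, 482, was still above every ABT-263-treated mouse, although the DMSO-treated mice themselves ranged widely, with 480 and 481 high. Chrng fell 62.5-fold, with a log2 fold change of -5.97 ± 1.30 (SE; 95% interval -8.99 to -2.94; edgeR adjusted p = 0.0197). The call was lost without ABT-263-treated mouse 476, 477 or 478 (edgeR adjusted p = 0.122, 0.0745 and 0.0650), with the fold change between -6.35 and -4.95 in the 7 fits that left out a mouse.

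The other subunits were read from a list of 12 genes of the receptor and the neuromuscular junction, all tested. Of these 0 rose, beside 12.4% of all genes tested, and 3 fell, beside 11.7%, with a median log2 fold change of -0.59. Rapsn, the rapsyn that clusters receptors (-0.87, edgeR adjusted p = 0.0105), Chrne (-1.20, edgeR adjusted p = 0.0141) and Chrnb1, the beta subunit (-0.79, edgeR adjusted p = 0.0347), fell. Without ABT-263-treated mouse 478 the number that fell was 1. Chrnd, the delta subunit, named after its values were seen, had 17.4, 29.1, 1.23 and 2.67 CPM with DMSO and 1.89, 1.64 and 2.08 CPM with ABT-263. It had the pattern of Chrna1 and Chrng within the DMSO group, high in 480 and 481 and low in 482 and 483, and missed the threshold (-2.75, edgeR adjusted p = 0.0900).

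Per kilobase of exon and per 1000000 counts, mean levels in DMSO were 13.5 for Chrnb1, 8.88 for Chrna1, 5.91 for Chrng, 3.83 for Chrnd and 2.58 for Chrne. In ABT-263 they were 7.79, 3.72, 0.0928, 0.569 and 1.12. Chrng thus stood above Chrne in the DMSO mean and below it in the ABT-263 mean. The ratio of Chrng to Chrne per kilobase, a measure chosen after the values were seen, was 3.14, 4.75, 0.181 and 0.649 in DMSO-treated mice 480 to 483. It was 0.0761, 0.0822 and 0.0897 in ABT-263-treated mice 476 to 478. Chrng exceeded Chrne in mice 480 and 481 alone, and the ratio was lower in every ABT-263-treated mouse than in any DMSO-treated mouse.

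**Figure D3:**
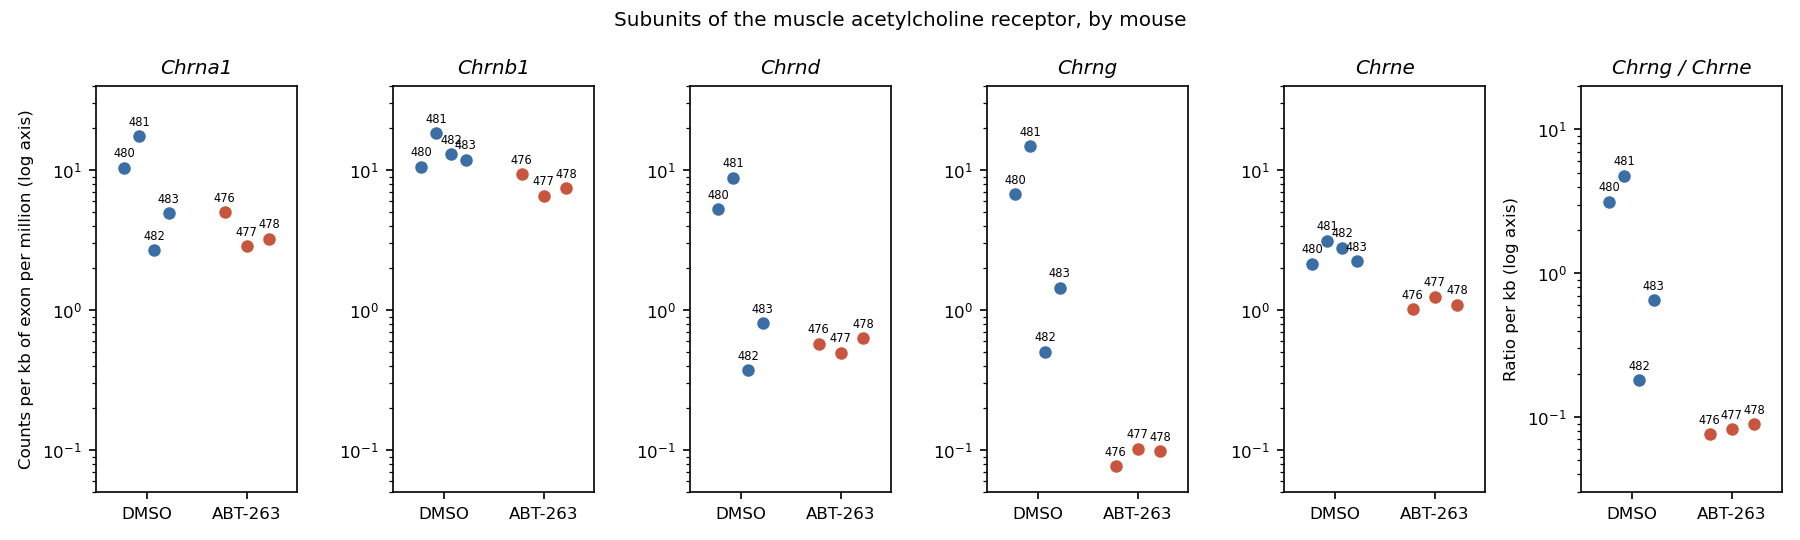
Counts per kilobase of exon per 1000000 counts (log axis) for 5 subunits of the muscle acetylcholine receptor, and the ratio of Chrng to Chrne (log axis, right), in each DMSO-treated (blue) and ABT-263-treated (red) mouse. Chrna1, Chrnd and Chrng spread widely among the DMSO-treated mice while Chrnb1 and Chrne do not, and Chrng in ABT-263 lies between 0.0773 and 0.103.

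The denervation and atrophy list placed Chrna1, Chrng and Myog beside 15 further genes, of which 14 were tested (Dach2 was not). Of these 0 rose, beside 12.4% of all genes tested, and 3 fell, beside 11.7%, with a median log2 fold change of -0.51. Hdac4, a deacetylase induced by denervation (-1.55, edgeR adjusted p = 0.00728), Hdac9, its relative (-0.75, edgeR adjusted p = 0.0367), and Ncam1, which is also in the progenitor list, fell. The number was 1 without ABT-263-treated mouse 478. Gadd45a, a stress gene that denervation induces, is named after its values were seen. It overlapped between groups (-1.37, edgeR adjusted p = 0.207), and mouse 481 was highest and 482 the lowest of all 7.

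The levels of the 10 genes can be set in order per kilobase of exon. With DMSO the mean order was Myf6 (45.1), Myog (24.0), Myod1 (16.2), Chrna1 (8.88), Myh8 (6.21), Chrng (5.91), Mymk (2.33), Myh3 (2.26), Myf5 (0.127) and Pax7 (0.0598), in the same unit. Neighbours in this order overlapped in their ranges over mice, except Myh3 (0.988 to 4.66) and Myf5 (0.0196 to 0.256). With ABT-263 the order was Myf6 (38.4), Myog (7.76), Myod1 (6.65), Chrna1 (3.72), Myh8 (2.00), Myh3 (1.09), Mymk (0.342), Chrng (0.0928), Pax7 (0.0881) and Myf5 (0.0596). There Myog and Myod1 overlapped, as did Chrng and Pax7, and the other neighbours did not. Myf6 led in both groups, and Chrng went from the sixth place to the eighth. With the length of the longest protein-coding transcript, 6149 bases in place of 11772 for Myh8, Myh8 (11.9) stood above Chrna1 (8.88) in DMSO.

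Genes of adult muscle fibres were read from a list of 20, all tested, of which 0 rose, beside 12.4% of all genes tested, and 7 fell, beside 11.7%, with a median log2 fold change of -0.77. The genes that fell included Pvalb, the calcium buffer parvalbumin of fast fibres (-3.33, edgeR adjusted p = 0.00942), Casq1, calsequestrin (-1.44, edgeR adjusted p = 0.0103), and the fast troponins Tnnc2 (-1.65, edgeR adjusted p = 0.0104) and Tnni2 (-1.28, edgeR adjusted p = 0.0233). The summed level of the list was 50743 to 98232 CPM with DMSO and 36682 to 50746 CPM with ABT-263. In homogenised skin, fewer muscle cells and less RNA per muscle cell cannot be told apart. The number that fell was 4 without DMSO-treated mouse 481 and 3 without DMSO-treated mouse 482 or 483 or any one of the ABT-263-treated mice.

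Each gene was therefore also expressed relative to the summed CPM of the 20 fibre genes in the same mouse, as log2 of CPM per 1000000 fibre CPM, with no test. Myog was 8.83, 9.07, 8.71 and 8.82 in DMSO-treated mice 480 to 483 and 8.60, 7.78 and 7.48 in ABT-263-treated mice, a difference of means of -0.91. Mymk was 5.69, 6.29, 5.46 and 4.06 against 3.89, 2.63 and 3.67, a difference of -1.98. Chrng was 9.12, 9.52, 4.84 and 5.94 against 2.82, 3.55 and 3.01, a difference of -4.23. In these 3 genes the ABT-263-treated mice remained below all DMSO-treated mice, by the smallest margin in Myog. The share of all genes that did so on this scale was not computed. The other 5 genes overlapped, with differences of -0.77 for Myh8, -0.40 for Myod1, -0.20 for Chrna1, -0.04 for Myh3 and 0.44 for Myf6. Pax7 and Myf5 were left out for their low counts. Myf6 was nearly constant per fibre RNA among the DMSO-treated mice (9.54 ± 0.14, SD), as was Myog (8.86 ± 0.15, SD), whereas Chrng (7.36 ± 2.32) and Chrna1 (8.69 ± 1.32) were not. With the log2 summed fibre level as a covariate in the edgeR fit, 0 of the 9 genes passed (3 lower at an unadjusted p below 0.05), although most log2 fold changes stayed negative. They were -6.17 for Chrng (edgeR adjusted p = 0.0890), -2.38 for Myh8 (0.0773), -2.20 for Mymk (0.138) and -0.77 for Myog (0.271), beside -5.97, -1.64, -2.77 and -1.63 without the covariate. For the others they were -1.31 for Chrna1, -1.10 for Myh3, -0.74 for Myod1, -0.35 for Pax7 and 0.59 for Myf6. The sizes given by the covariate and by the ratio to fibre RNA differed most for Chrng, Myh8, Chrna1 and Myh3. Differences in the ratio are between means of log2 values, whereas edgeR fits counts, so the sizes are not directly comparable. That fit called 956 genes in all, beside 4342 without the covariate. The summed fibre level itself hardly overlapped between the groups (50743 to 98232 CPM with DMSO, 36682 to 50746 CPM with ABT-263). The fit therefore cannot separate it from treatment.

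**Figure D4:**
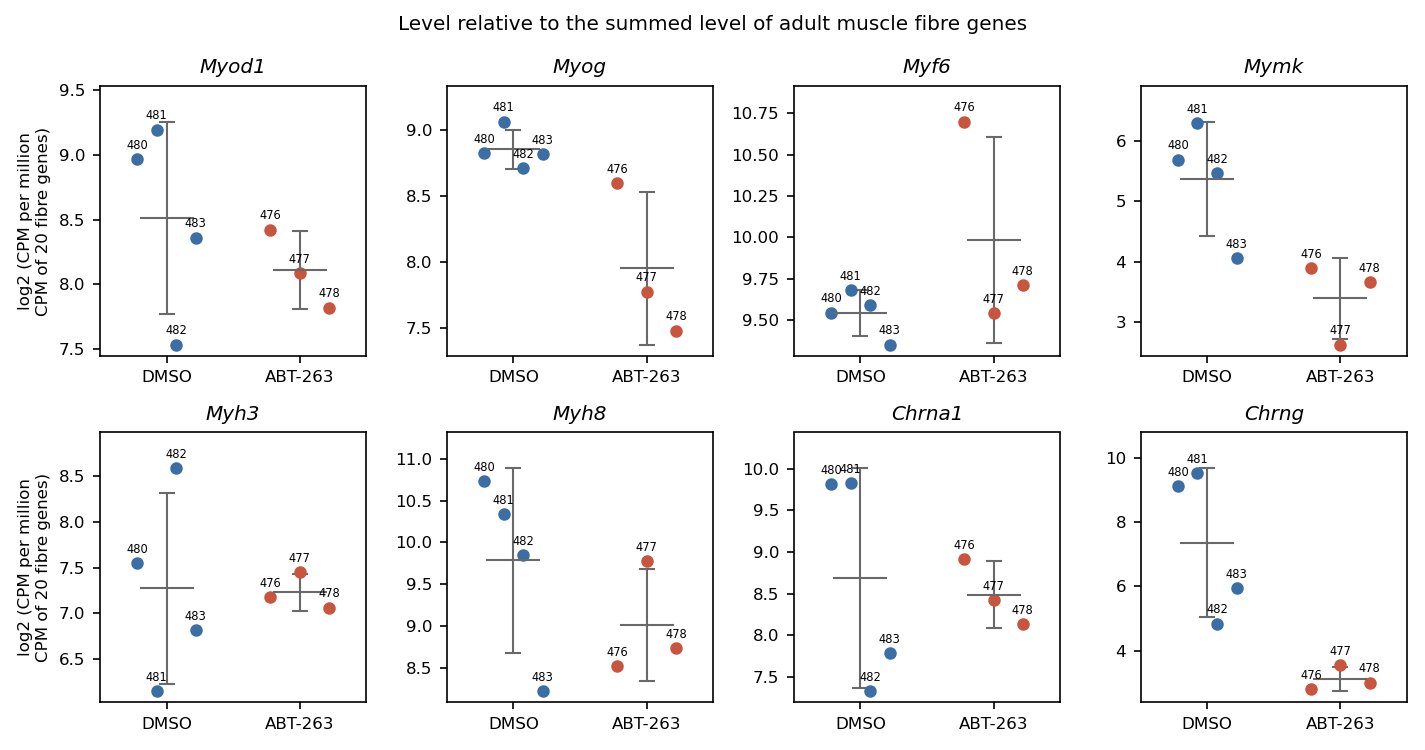
Log2 of CPM per 1000000 CPM of 20 adult fibre genes (vertical axis, own scale for each gene) in each DMSO-treated (blue) and ABT-263-treated (red) mouse for 8 of the 10 genes; bars are mean ± SD. Red points lie below all blue points in Myog, Mymk and Chrng and among or above them in the others.

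Markers of other cells of skin also differed between the groups. Their counts stand beside 12.4% of all genes tested that rose and 11.7% that fell. Macrophage markers (6 of 8 rose, median 1.62) summed to 305 to 904 CPM with DMSO and 983 to 3287 CPM with ABT-263. Endothelial markers (6 of 8 rose, median 1.04) summed to 224 to 478 and 629 to 771 CPM, and fibroblast markers (3 of 8 rose, median 0.77) to 4018 to 5660 and 6372 to 9038 CPM, with no gene of these 3 lists falling. Of Schwann cell and nerve sheath markers 0 of 8 rose and 2 fell (median -0.52), with sums of 200.3 to 337 and 195 to 248 CPM, and of smooth muscle and pericyte markers 0 rose and 1 of 8 fell (median 0.11), with sums of 446 to 606 and 487 to 663 CPM. Of keratinocyte markers 0 of 8 rose or fell (median -0.18), with sums of 26192 to 68623 and 19447 to 59575 CPM. The lists here and above that had 0 genes in a direction also had 0 by DESeq2 and limma. At an unadjusted p below 0.05 they had 0 in that direction as well, except for smooth muscle. There 2 genes were higher by edgeR, 3 by DESeq2 and 1 by limma. The part of these cells in the results for the 10 genes was not tested. Abundant markers by mean CPM were Lyz2 (2.43, edgeR adjusted p = 0.0210) and C1qa (0.75, 0.280), Pecam1 (1.03, 0.0280) and Egfl7 (0.51, 0.108), Col1a1 (0.47, 0.196) and Col1a2 (0.83, 0.0410), Pmp22 (0.24, 0.483), Tagln (-0.01, 0.977) and Acta2 (0.18, 0.472), and Krt14 (0.25, 0.728) and Lor (-1.08, 0.275), each with its log2 fold change and edgeR adjusted p. The plot of fold changes by list shows every gene tested.

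**Figure D5:**
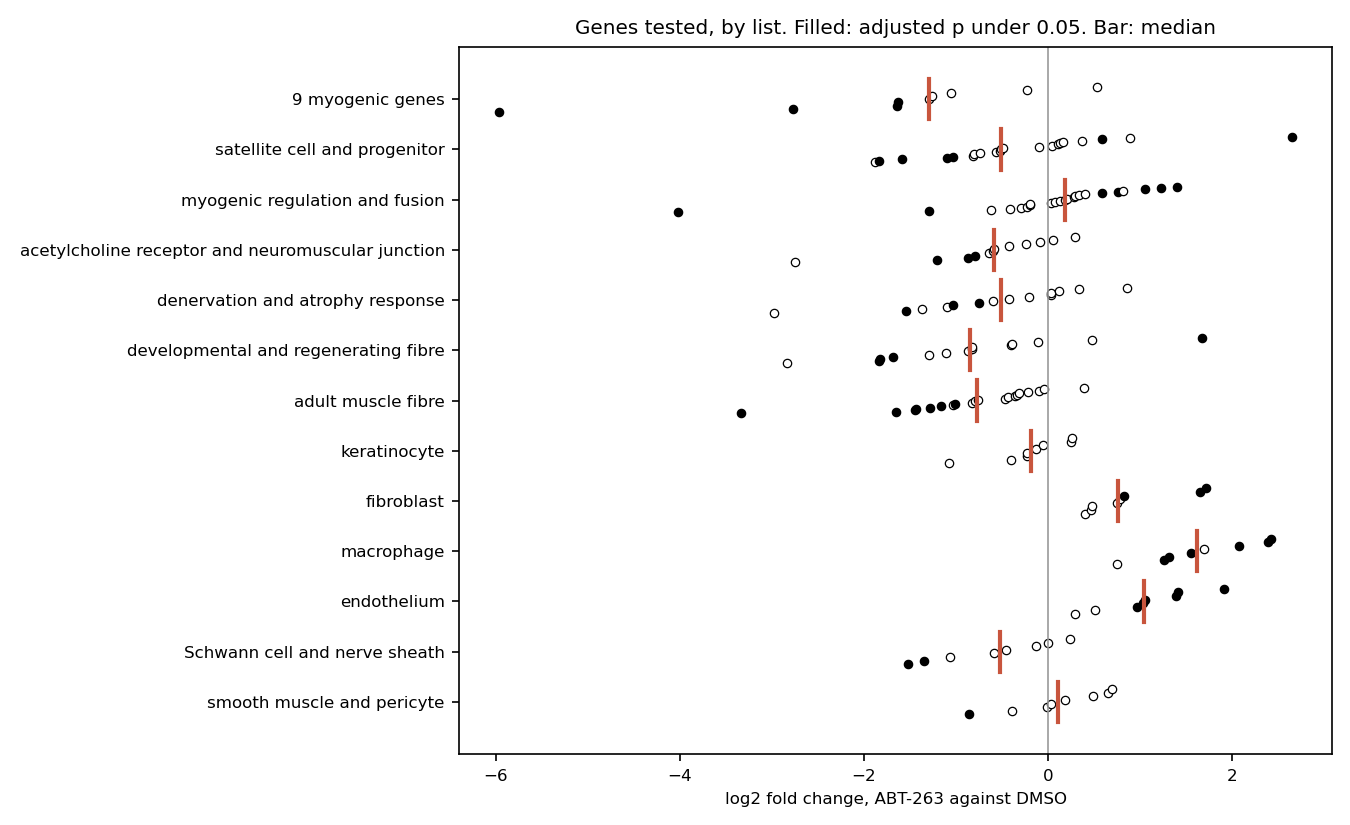
Log2 fold change of ABT-263 against DMSO (horizontal axis) of each tested gene (points) in the 9 myogenic genes and 12 lists; filled points have an adjusted p below 0.05 and vertical bars are list medians. The 9 genes have the most negative median (-1.29) of the sets shown, and the macrophage markers the highest (1.62). The genes and lists were chosen with earlier results of these data known.

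For Myf6, Myh8 and Chrna1, the most abundant of the 9 genes by mean CPM, the genes with the most similar profile over the 7 mice were sought by the root mean square difference of centred log2 CPM. For Myf6 they were Gm37599 (0.129), Tha1 (0.178) and Ubxn11 (0.192). For Myh8 they were Gm22980 (0.269), C2cd4a (0.277) and AC132307.5 (0.278), and for Chrna1 they were 2310008N11Rik (0.284), Scx (0.328) and Plekhh1 (0.372). No gene of the lists used here was among these 9.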

How the data were processed

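Skin homogenates of 4 DMSO-treated and 3 ABT-263-treated mice were sequenced in bulk, with 1 library per mouse. The authors aligned reads to mm10 with STAR 2.7.9a and obtained gene-level counts with featureCounts (Subread 1.6.2), from uniquely aligned proper pairs on the same strand, and left out mitochondrial genes. These deposited counts are raw. The other deposited table, with values of log2 type after a variance-stabilizing transformation by the authors with DESeq2 1.23.10, was used only as an alternative. The Ensembl annotation the authors name, build 109, is not the GENCODE M21 (GRCm38) from which symbols, positions and lengths were taken here, and 55190 of the 55450 identifiers were found there. All 163 listed genes were matched. The values of 2 listed genes are not reported here.

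Counts were tested in R 4.3.3 with edgeR 4.0.16 (TMM, filterByExpr, robust quasi-likelihood F test, two-sided, Benjamini-Hochberg over 17959 genes, threshold 0.05). The 10 genes and the lists were chosen with earlier results of these data known. Genes named besides the 10 are up to 4 per list and direction by smallest p, for marker lists the 2 of highest mean CPM, and the nearest profiles (prior count 2). Levels per length used all exon bases. Promoters came from RefSeq. Counts are precise to counting error only.

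Tested on simulated data (17523 and 17530 genes), edgeR recovered 10.3% and 17.2% of changes of log2 1 and 70.1% and 73.4% of changes of log2 2, with 6.02% and 2.27% of its calls false. Changes were placed in far fewer genes there than were called in the real data, and the adjusted threshold depends on that share. These percentages therefore need not hold for the real data. Alternatives were the DESeq2 1.42.0 Wald test, its size factors, no filter, at least 10 counts in every sample, limma 3.58.1 on the variance-stabilized values, a fibre covariate, each mouse left out, and, chosen after seeing the data, coding transcript lengths.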

Additional observations from a re-analysis of the deposited data

Results flagged for a closer look

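Among the genes named above, 3 levels in the DMSO group had 1 mouse far from the others by Dixon's ratio of gap to range, above its 95% critical value for 4 mice. In Vcam1 (ratio 0.863) mouse 481 had 3.16 CPM and the others 5.09 to 5.40 CPM. In Jam2 (ratio 0.875) mouse 481 had 8.55 CPM and the others 11.7 to 12.1 CPM. In Kirrel (ratio 0.852) mouse 483 had 11.9 CPM and the others 8.52 to 9.02 CPM. Of 74 measures examined, chance alone gives 3.7 such values, and none of the 10 myogenic genes was among the 3.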

How the results depend on the processing

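Of the 9 genes tested, the 4 that fell became 2 with no filter on low counts and 2 with at least 10 counts in every sample (where Chrng, Mymk and Pax7 were not tested), 0 with the fibre covariate (log2 fold changes of -6.17 for Chrng, -2.38 for Myh8, -2.20 for Mymk and -0.77 for Myog), 5 by the DESeq2 Wald test, and 0 to 4 with 1 mouse left out. Over all genes, 1515 of 30645 fell without the filter, beside 2108 of 17959 in the main fit. With at least 10 counts 1970 of 15459 fell, with the fibre covariate 482 of 17959, and by DESeq2 2691 of 21822. Without the filter, the edgeR adjusted p was 0.104 for Myh8 and 0.0757 for Chrng, with 30645 genes tested. DESeq2's size factors and limma each gave 4. The summed fibre level differed between the groups, so the fit with it as a covariate cannot separate it from treatment. The fibre covariate turned Pax7 to -0.35 and Myf6 to 0.59 (log2), and Myf6 ranged from -0.70 to 0.090 with 1 mouse left out. Relative to fibre RNA less the 2 most abundant fibre genes, the difference in Myh3 went from -0.04 to 0.0047. No other sign of the 9 genes changed. In the fusion list 1 gene fell with at least 10 counts in every sample, and in the developmental fibre list 6 fell by the DESeq2 Wald test. With 1 mouse left out, the number that rose was 1 to 2 in the progenitor and 2 to 5 in the fusion list, and the number that fell was 1 to 5 in the progenitor, 1 to 3 in the junction, 1 to 3 in the denervation and 3 to 9 in the adult fibre list. Over all genes 1735 to 4169 passed with 1 mouse left out, beside 4342. By length of the longest protein-coding transcript, Myh8 ranked 4 and Chrna1 ranked 5 in DMSO. Except where a construction is named, the cause was not tested. No paired analysis was possible because the groups share no replicate numbers. Depth limits Pax7, Myf5, Mymx and, in ABT-263, Chrng and Mymk.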
